A study of Mus musculus with 36 samples.

Results

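The 10 genes described here are markers of resident Kupffer cells, the macrophages that live in the sinusoids of the liver: Clec4f, Vsig4, Cd5l, Timd4, Marco, Adgre1, C1qa, C1qb, C1qc and Csf1r. They were chosen by name, with earlier results of these data known. Each was read from the probe set whose platform annotation names that gene alone, and each of the 10 had 1 such probe set. All 10 were among the 13956 genes bright enough to be tested, out of 19938 genes with a probe set of their own.

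The 36 liver samples came from C57BL/6J mice, an inbred laboratory strain, aged 16 weeks. Of these samples, 18 were from mice on normal chow. The other 18 were from mice that had eaten a diet with 60% of its calories from fat for 10 weeks. Access to food was free. Livers were taken every 4 h, at Zeitgeber times ZT0, ZT4, ZT8, ZT12, ZT16 and ZT20, which count the hours after lights on under 12 h of light and 12 h of dark. This made 12 groups of 3 arrays, with 1 sample on each array. No mutation, transgene or drug is named for any group. Because the labels do not say how the 3 samples of a group were kept apart, p-values cover the spread among samples, which may be technical.

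Kupffer cells clear particles, microbes and worn red blood cells from portal blood, and their identity is maintained by signals from neighbouring stellate, endothelial and hepatocyte cells together with the cytokine receptor CSF1R. Clec4f and Timd4 mark resident cells more tightly, whereas Adgre1, Csf1r and the C1q genes are shared with other macrophages. Hepatocytes make most of the RNA in a liver sample, so these genes report on a small share of the tissue. In such bulk samples, more cells of a type and more RNA per cell cannot be told apart.

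The arrays had median intensities from 75.7 to 95.6, and the log2 values of 2 arrays of a group correlated at 0.976 to 0.993. Log2 values here are log2(intensity + 16), a scale that understates changes of dim probe sets. The median tested gene had a residual standard deviation of 0.14 around its group means and an average diet difference of 0.02. A gene was called at an adjusted p under 0.05 in limma, with Benjamini-Hochberg adjustment over all tested genes. The stretches upstream of 5 members are printed first, because the members with the largest diet differences (Cd5l, Vsig4, C1qb), a neighbour of C1qb (C1qc) and the member whose mean hardly differed (Marco) can be compared there. Each run is the 250 bases before the transcript start, 5′ to 3′ on the gene's strand, from RefSeq on GRCm38.p6. Capitals mark the letters of the searched motifs on either strand. The Cd5l stretch lies at chr3:87357631-87357880 on the plus strand. The Vsig4 stretch lies at chrX:96293439-96293688, the C1qb stretch at chr4:136886201-136886450, the C1qc stretch at chr4:136892915-136893164 and the Marco stretch at chr1:120505025-120505274, all on the minus strand.
Cd5l: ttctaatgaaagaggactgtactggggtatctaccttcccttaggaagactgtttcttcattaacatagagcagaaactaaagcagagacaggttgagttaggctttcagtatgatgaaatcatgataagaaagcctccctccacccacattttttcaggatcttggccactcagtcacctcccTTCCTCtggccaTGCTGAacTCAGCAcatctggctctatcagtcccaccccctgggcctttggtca
Vsig4: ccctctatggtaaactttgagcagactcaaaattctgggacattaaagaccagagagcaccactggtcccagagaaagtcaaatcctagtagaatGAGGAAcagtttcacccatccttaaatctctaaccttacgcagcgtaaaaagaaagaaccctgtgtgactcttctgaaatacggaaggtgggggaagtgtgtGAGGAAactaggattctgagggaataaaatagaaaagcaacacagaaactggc
C1qb: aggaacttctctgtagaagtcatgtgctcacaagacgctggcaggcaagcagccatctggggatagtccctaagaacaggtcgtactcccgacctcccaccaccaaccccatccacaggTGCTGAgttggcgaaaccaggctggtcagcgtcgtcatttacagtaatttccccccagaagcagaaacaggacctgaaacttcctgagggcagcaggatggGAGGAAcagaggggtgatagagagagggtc
C1qc: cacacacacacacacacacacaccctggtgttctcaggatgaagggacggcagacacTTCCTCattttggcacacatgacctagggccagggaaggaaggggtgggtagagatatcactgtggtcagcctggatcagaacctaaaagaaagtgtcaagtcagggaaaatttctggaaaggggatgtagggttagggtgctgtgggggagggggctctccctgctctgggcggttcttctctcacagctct
Marco: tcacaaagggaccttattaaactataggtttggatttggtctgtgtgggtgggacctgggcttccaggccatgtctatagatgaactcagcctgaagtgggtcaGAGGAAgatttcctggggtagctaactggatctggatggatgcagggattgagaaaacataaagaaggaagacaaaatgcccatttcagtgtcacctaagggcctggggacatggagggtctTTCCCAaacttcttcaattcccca

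Of the 10 members, 7 had such a stretch that was used here. GAGGAA, the purine-rich core read by PU.1, the master factor of macrophages, was found in 5 of 7 (Vsig4, Cd5l, Marco, C1qb and C1qc) and in 23.3% of 32851 promoters of the same length. TGCTGA, the core of the site of the MAF factors of macrophages, was found in 4 of 7 (Clec4f, Cd5l, Timd4 and C1qb) and in 16.1% of all. TGGGAA, the core read by RBPJ, was found in Clec4f and Marco and in 21.6% of all. CACGTG, the E-box read by MITF, TFEB and clock factors, was found in 0 of 7 and in 6.02% of all. None of the 4 motifs overlaps another in its letters on the printed strands. The Marco stretch held GAGGAA like those of Cd5l, Vsig4, C1qb and C1qc. C1qa, C1qb and C1qc are neighbours on chromosome 4.

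The first comparison was of high fat diet against chow over the whole day. Of the 10 markers, 8 rose on high fat diet, none fell, and Timd4 and Marco were not called. Cd5l, Vsig4 and C1qb had the highest differences, between 1.40-fold and 1.48-fold. The other 5 that rose, Adgre1, C1qc, Clec4f, Csf1r and C1qa, were between 1.19-fold and 1.29-fold. The median difference over the 10 members was 0.33 on the log2 scale. Among all tested genes, 11.2% were called higher and 9.80% lower.

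Cd5l, also called AIM, encodes a secreted protein of macrophages that can enter lipid-laden cells. Its log2 level (probe set 10492964) was lowest at 7.95, in the middle at 8.76 and highest at 9.41 over the 18 chow arrays. On high fat diet the lowest was 8.86, the median 9.22 and the highest 10.14. All 18 high fat arrays lay above the chow median and 8 lay above every chow array. The mean went from 8.79 ± 0.38 to 9.35 ± 0.35 (SD, n = 18 each). The difference was 0.56 ± 0.10 (SE; limma adjusted p = 0.000108).

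Clec4f, a C-type lectin that in mice is made almost only by Kupffer cells, rose less. Its chow arrays (probe set 10545731) ran from 8.34 over a median of 8.99 to 9.32, and its high fat arrays from 8.91 over 9.20 to 9.66. In these, 17 of 18 high fat arrays exceeded the chow median. The means were 8.95 ± 0.24 and 9.25 ± 0.19 (SD, n = 18 each), and the difference was 0.31 ± 0.07 (SE; limma adjusted p = 0.00225). The high fat mean was the higher one at 6 of 6 times for both Clec4f and Cd5l.

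Vsig4 encodes CRIg, the receptor with which Kupffer cells catch complement-coated bacteria. It had the widest spread of the members within groups, with a residual standard deviation of 0.48. Chow arrays (probe set 10605848) ran from 8.48 over a median of 9.34 to 10.47, and high fat arrays from 9.14 over 9.76 to 10.83, so the diets overlapped widely. The means were 9.41 ± 0.58 and 9.94 ± 0.50 (SD, n = 18 each), and the difference was 0.53 ± 0.15 (SE; limma adjusted p = 0.00777). It was positive at 5 of 6 times.

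C1qa, C1qb and C1qc encode the 3 chains of C1q, the recognition part that starts the classical complement pathway. All 3 rose. C1qb (probe set 10517508) went from 9.22 ± 0.47 to 9.70 ± 0.48 (SD, n = 18 each), by 0.48 ± 0.12 (SE; limma adjusted p = 0.00470). C1qc (probe set 10517513) went from 8.49 ± 0.37 to 8.85 ± 0.38, by 0.36 ± 0.11 (limma adjusted p = 0.0153). C1qa (probe set 10517517) went from 8.33 ± 0.22 to 8.57 ± 0.20, by 0.25 ± 0.06 (limma adjusted p = 0.00428). C1qa had the smallest difference of the 3 chains, and 10 of its 18 high fat arrays lay above every chow array, against 3 for C1qb and 5 for C1qc.

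Adgre1 encodes F4/80, the adhesion receptor used to recognise mouse macrophages, and Csf1r encodes the receptor for the growth factors CSF1 and IL-34. Adgre1 (probe set 10446282) had chow arrays from 7.06 over 7.98 to 8.49 and high fat arrays from 7.43 over 8.18 to 9.30. Its mean rose from 7.91 ± 0.41 to 8.28 ± 0.48 (SD, n = 18 each), by 0.37 ± 0.11 (SE; limma adjusted p = 0.0120). Csf1r (probe set 10456071) rose from 8.61 ± 0.30 to 8.89 ± 0.33, by 0.28 ± 0.09 (limma adjusted p = 0.0194). Both genes overlapped between the diets over most of their range.

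Timd4, a receptor for phosphatidylserine on dying cells and a marker of long-lived resident macrophages, was not called. Its mean (probe set 10375472) was 7.16 ± 0.28 on chow and 7.39 ± 0.40 on high fat diet (SD, n = 18 each). The difference was 0.23 ± 0.09 (SE), with a 95% interval from 0.05 to 0.41 and a limma adjusted p of 0.0677. Marco, a scavenger receptor for bacteria and particles, had means of 6.50 ± 0.23 and 6.51 ± 0.23 (probe set 10357261), with a 95% interval of the difference from -0.12 to 0.14 (limma adjusted p = 0.933). Marco lay at the 15.0th percentile of level among tested genes, so its interval covers changes on a compressed scale.

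**Figure D1:**
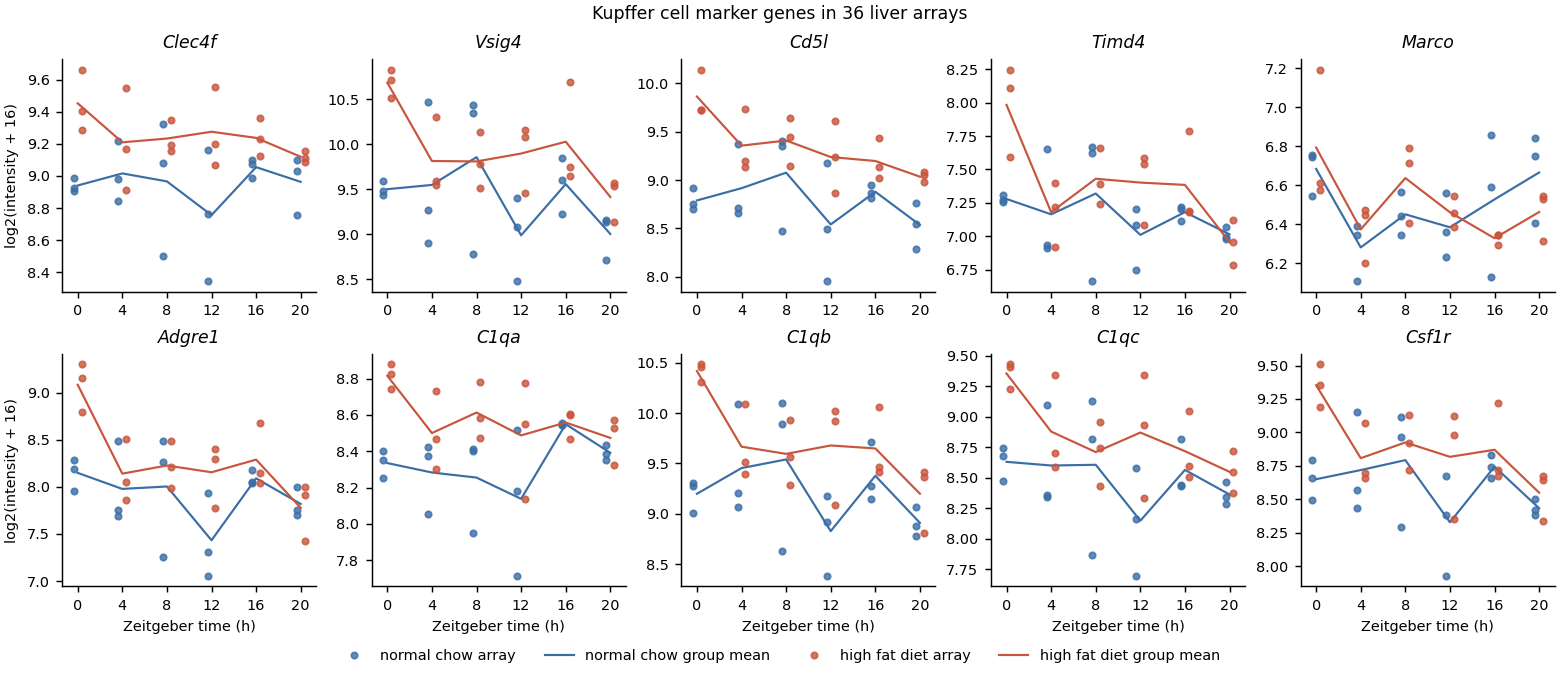
Log2(intensity + 16) of each marker (vertical axes, each with its own range) against Zeitgeber time in hours, with 1 point per array, 3 arrays per diet and time, and lines through the group means. High fat diet at ZT0 has the highest group mean in all 10 panels, and in the Adgre1 and C1qb panels its 3 arrays lie above every other array.

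Leaving out 1 time ended calls at ZT0 and ZT12 and at no other time. Without ZT0 the calls of Clec4f and Cd5l were the 2 that remained, and without ZT12 the 4 that remained were Clec4f, Cd5l, C1qa and C1qb. Both sets were computed after the data were seen.

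The second comparison was of the diets at each time. At ZT0, when the lights come on, 6 members rose on high fat diet: Cd5l, C1qb, Adgre1, Csf1r, Vsig4 and Timd4. For 9 of 10 members, all but Marco, the 3 high fat arrays lay above the 3 chow arrays. Among all tested genes 3.37% were called higher at ZT0, and 14.9% had such separated arrays. The median ZT0 difference of the 10 members was 0.71. The high fat arrays of ZT0 were also brighter as a whole. Their median intensities were 91.4, 95.6 and 85.6, against 86.5, 81.9 and 75.7 on chow, and values were not scaled. At ZT0, median centring left 4 called members and quantile normalization gave 7.

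C1qb at ZT0 was 9.01, 9.28 and 9.31 in the 3 chow arrays and 10.31, 10.46 and 10.48 in the 3 high fat arrays. The groups were more than 1 log2 unit apart, and all 3 high fat arrays also exceeded every array of the other 11 groups, the highest of which was 10.10. The difference was 1.22 ± 0.30 (SE; limma adjusted p = 0.0153). Vsig4 was 9.43, 9.48 and 9.59 on chow and 10.51, 10.71 and 10.83 on high fat diet, a difference of 1.18 ± 0.36 (limma adjusted p = 0.0389).

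Cd5l was 8.70, 8.75 and 8.92 on chow at ZT0 and 9.72, 9.73 and 10.14 on high fat diet. Its difference was 1.08 ± 0.25 (SE; limma adjusted p = 0.00987). Adgre1 was 7.96, 8.20 and 8.29 on chow and 8.80, 9.16 and 9.30 on high fat diet. It differed by 0.94 ± 0.26 (limma adjusted p = 0.0263), and its 3 high fat arrays also exceeded every other array, of which the highest was 8.68.

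Csf1r was 8.49, 8.66 and 8.80 on chow and 9.19, 9.36 and 9.51 on high fat diet, a difference of 0.70 ± 0.21 (SE; limma adjusted p = 0.0373). Timd4 was 7.26, 7.27 and 7.31 on chow, an even group, and 7.59, 8.11 and 8.25 on high fat diet. It differed by 0.70 ± 0.22 (limma adjusted p = 0.0462), although its average over the day was not called. Timd4 was called at ZT0 in 29 of 49 alternatives, and lost the call with quantile normalization, median centring (which left 4 members, without Csf1r), an offset of 1, no intensity filter and array weights. C1qc, C1qa and Clec4f had separated arrays without passing the test, with differences of 0.72, 0.48 and 0.51 (limma adjusted p = 0.0919, 0.0544 and 0.0731).

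Leaving out any single ZT0 array lowered the number of these calls. Whether this came from the values of that array or from the smaller group was not tested. Leaving out any of the 3 chow arrays or the third high fat array left Cd5l and C1qb, leaving out the second high fat array left Cd5l, and leaving out the first left Cd5l, Timd4, Adgre1 and C1qb. Of the 30 arrays of other times, leaving out 1 raised the count for 6, lowered it to 5 for 8, each time without Timd4, and left it at 6 for 16. The highest count, 8, came without the first chow array of ZT8.

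At ZT12, when the lights go off, no member was called (0 of 10; lowest limma adjusted p = 0.0838), where 2.47% of tested genes were called higher. At the looser threshold of an unadjusted limma p under 0.05 there were 8 members. The share of all tested genes at that threshold was not computed. The median difference was 0.61. Vsig4 alone had separated arrays, 8.48, 9.08 and 9.40 on chow against 9.46, 10.08 and 10.16 on high fat diet, where 11.7% of tested genes were separated this way. The chow group was the widest apart in Cd5l, at 7.95, 8.49 and 9.17, against 8.86, 9.24 and 9.61 on high fat diet. The third chow array of ZT12 was the lowest of all 36 arrays for 8 of 10 members.

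At the other 4 times 0 members were called, with median differences of 0.20 at ZT4, 0.16 at ZT8, 0.19 at ZT16 and 0.14 at ZT20. The shares of all tested genes called higher by limma were 2.29%, 0.279%, 1.05% and 1.24%. Of the 10 members, 0, 1, 0 and 0 had an unadjusted p under 0.05 at these times, a threshold at which the shares of all tested genes were not computed. Cd5l remained between 0.32 and 0.50 at all 4. Vsig4, 1.18 at ZT0, was at -0.05 at ZT8, and Adgre1 and Timd4 were at -0.04 and -0.06 at ZT20.

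**Figure D2:**
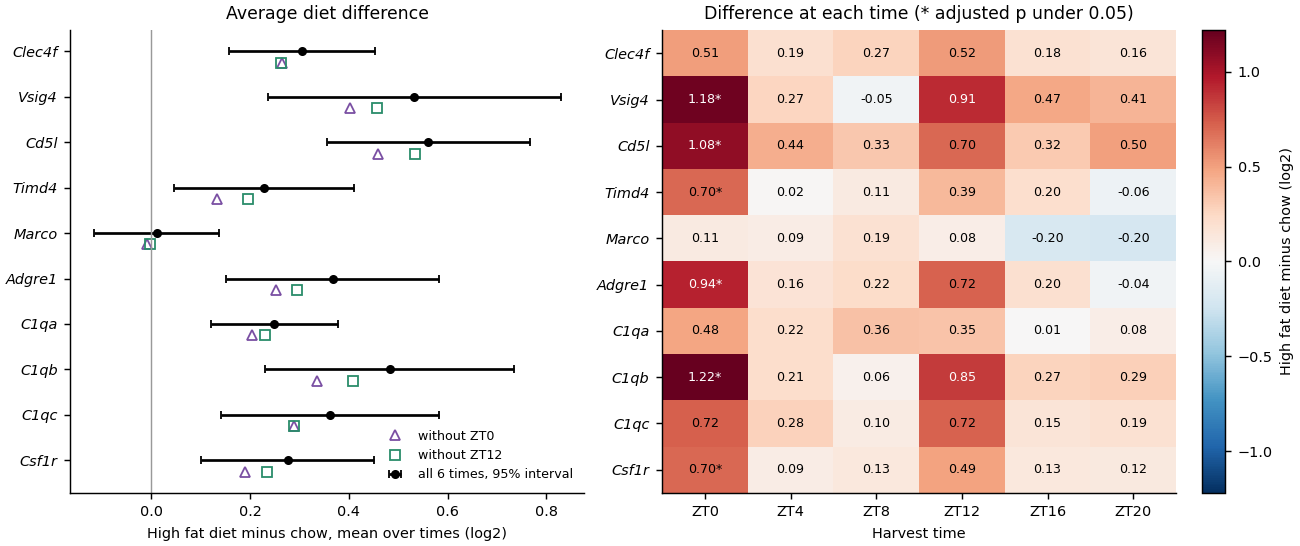
On the left, the average log2 difference of high fat diet minus chow (horizontal axis) for each marker (vertical axis), with its 95% interval, and the same average without ZT0 (triangles) and without ZT12 (squares). On the right, the log2 difference at each time, with stars where the limma adjusted p was under 0.05, which are the 6 at ZT0.

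The differences at ZT0 were not shown to differ from those at other times. In the test of a diet difference that varies with time, limma called 0 of 10 members (adjusted p from 0.424 to 0.764, and 0 with an unadjusted p under 0.05), and 0.631% of all tested genes. C1qb had the smallest of these adjusted p-values and Clec4f the largest.

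Rhythm was then tested, since many liver genes follow the day. On chow, 0 of 10 members fitted a 24 h wave (limma adjusted p from 0.203 to 0.855, and 0 at an unadjusted p under 0.05), against 20.6% of tested genes. Fitted amplitudes, from mean to peak, were 0.06 to 0.25 on the log2 scale, lowest for Clec4f and highest for Vsig4. On high fat diet the limma count was again 0 (adjusted p from 0.384 to 0.936, 0 unadjusted), against 11.0% of tested genes, with amplitudes of 0.04 to 0.23. The difference in rhythm between diets was called by limma for 0 members (0 unadjusted) and for 0.0287% of genes.

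A test for any difference between the 6 times, which assumes no wave, called 2 members on high fat diet, Adgre1 (limma adjusted p = 0.0111) and Timd4 (limma adjusted p = 0.0194), where 16.8% of tested genes were called. In all, 7 members had an unadjusted p under 0.05 in this test, a threshold at which the share of all tested genes was not computed. For Adgre1 the high fat group means were 9.09 at ZT0 and between 7.78 and 8.29 at the other times. For Timd4 they were 7.98 at ZT0 and between 6.96 and 7.43 elsewhere. On chow this test called 0 members (0 unadjusted; lowest limma adjusted p = 0.220), against 21.0% of tested genes.

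Ordered by group mean, high fat diet at ZT0 came first for 10 of 10 members and chow at ZT12 last for 7. The share of all tested genes with this order was not computed. The members other than Marco varied together within groups, as given below, so these are not counts of independent genes. The exceptions at the low end were Cd5l, lowest on chow at ZT20, Timd4, lowest on high fat diet at ZT20, and Marco, lowest on chow at ZT4. The gap between the first and the second group exceeded the standard deviation of either group for 8 members, among them Adgre1 (0.80 against 0.26 and 0.34), C1qb (0.74 against 0.09 and 0.51) and Vsig4 (0.66 against 0.16 and 0.58). Both groups were picked by rank from these same values, so the gap is a description and not a test. The share of all tested genes with such a gap was not computed. For Clec4f the gap was 0.18, smaller than both standard deviations, 0.19 and 0.25. The same held for Marco, with a gap of 0.11 between high fat diet and chow at ZT0.

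The members were then compared with each other inside groups, because most of them scattered widely among arrays of the same diet and time. Their residual standard deviations, 0.20 to 0.48, lay at percentiles 85.1 to 99.4 of tested genes. Deviations from the 12 group means were correlated over the 36 arrays for all 45 pairs. The 36 pairs without Marco had Pearson r from 0.695 to 0.955 (median 0.833) and Spearman rho from 0.608 to 0.956. All 36 were called by permutation within groups (adjusted p over the 45 pairs from 4.09e-05 to 0.00197 for r and from 4.50e-05 to 0.00462 for rho). Without the 2 arrays farthest from the median, r was 0.608 to 0.942.

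The C1q chains C1qb and C1qc had the highest r, 0.955, followed by C1qb with Csf1r at 0.953, Vsig4 with C1qb at 0.948 and Adgre1 with Csf1r at 0.946. Clec4f had r of 0.927 with Cd5l, 0.702 with Vsig4 and, the lowest outside Marco, 0.695 with C1qb. Csf1r had the highest r with the mean of the other members, 0.946, and Clec4f, at 0.805, the lowest but for Marco. Marco did not move with the others: its 9 pairs had r from -0.322 to -0.0712, and 1 was called by permutation, with C1qb (r = -0.322, adjusted p = 0.0405; rho = -0.372, adjusted p = 0.0422).

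**Figure D3:**
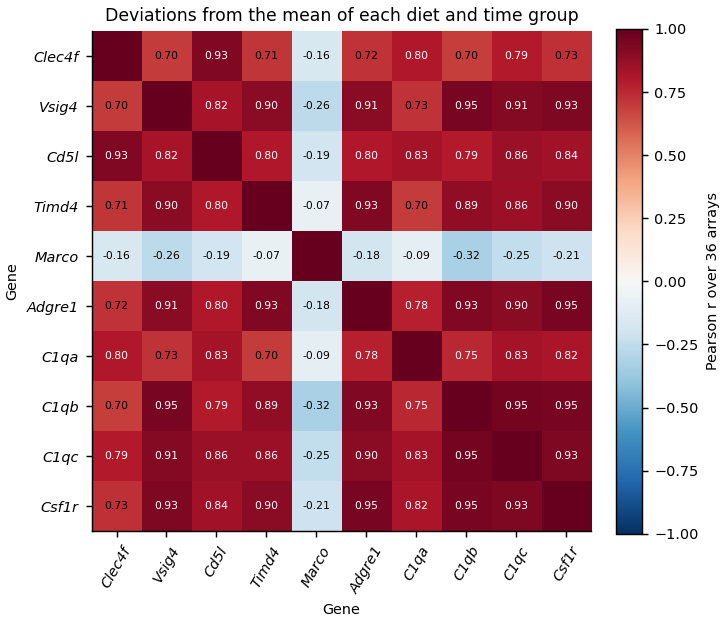
Pearson r between the deviations of 2 markers from their group means over 36 arrays, for each pair of genes on the horizontal and vertical axes, from blue (-1) to red (1). The 9 genes other than Marco form a block of 0.695 or more, and the Marco row lies between -0.322 and -0.0712.

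Although all but Marco moved together, the members' diet differences were not all equal on the log2(intensity + 16) scale. That scale understates changes of dim probe sets, and Timd4 and Marco were the dimmest members (means 7.28 and 6.50). Unequal response of probe sets and unequal change in RNA could not be told apart. The diet difference of each member was compared with that of each other member within arrays, by 100000 exchanges of the diet labels within times, and 16 of 45 pairs were called (permutation test, 2-sided, adjusted over the 45 pairs). Cd5l exceeded Timd4 by 0.33 and Csf1r by 0.29 (permutation adjusted p = 0.00135 for both), and Clec4f by 0.26 (permutation adjusted p = 0.00135). It also exceeded C1qa, C1qc, Adgre1 and Marco. Vsig4 exceeded Timd4 by 0.30 (permutation adjusted p = 0.0116) and Csf1r by 0.26 (permutation adjusted p = 0.0227). C1qb exceeded the same 2 genes by 0.25 and 0.21, and Adgre1 exceeded Timd4 by 0.14. Clec4f, Vsig4, C1qa and C1qb exceeded Marco, which was in 5 of the 16 called pairs. No called pair set Cd5l, Vsig4 and C1qb apart from one another.

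Genes whose pattern was most like the members' were taken by Pearson r, over 36 arrays, with the mean of the members' standardized values. Folr2, a folate receptor of tissue macrophages, came first at 0.950. It was followed by Sdc3 at 0.947, Cfp (properdin, a complement activator) at 0.945 and Adgre4, Cybb (the phagocyte oxidase subunit) and Treml4 at 0.942 each. Cd44, at 0.934, and Cd68, at 0.928, completed the 8. Within groups the 8 highest were Sdc3 (0.944), Fcgr4 (0.926), Folr2 (0.924), Cybb (0.915), Cfp (0.914), Tyrobp (0.913), P2ry13 (0.913) and Treml4 (0.912), so 5 genes were in both lists.

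Other genes of Kupffer cells and tissue macrophages were described by lists. Of 21 tested, 16 rose, 1 fell, and the median difference was 0.23, beside 0.02 over all tested genes. Vcam1, an adhesion molecule, rose by 0.56 ± 0.08 (SE; limma adjusted p = 9.54e-06), Il18bp, the inhibitor of interleukin 18, by 0.26 ± 0.05 and Pcolce2 by 0.34 ± 0.07. C6, the complement component that fell by 0.42, is also made by hepatocytes. Within groups 19 of the 21 had r above 0.5 with the members, beside 594 of all tested genes (4.26%).

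Of 12 shared myeloid genes, 8 rose and 1 fell, with a median of 0.32. Mpeg1, a pore-forming protein of macrophages, rose by 0.57 ± 0.07 (SE; limma adjusted p = 5.58e-07), Tyrobp, a signalling adaptor, by 0.46 ± 0.10 and Cybb by 0.45 ± 0.09. Lcp1, an actin-bundling protein of leukocytes, fell by 0.22 ± 0.04 (limma adjusted p = 4.36e-05).

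Of 14 tested transcription and growth factors linked to Kupffer cells, 2 rose and 1 fell (median 0.03). Spi1, which encodes PU.1, rose by 0.33 ± 0.10 (SE; limma adjusted p = 0.0124), and its r with the members within groups was 0.872. Il34, a ligand of CSF1R, rose by 0.15 ± 0.05. Id3, a regulator needed by Kupffer cells that other liver cells make too, fell by 0.43 ± 0.09 (limma adjusted p = 0.000653).

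Complement genes listed as partners of C1q, most of which hepatocytes make, did not share one direction. Of the 9 tested, which also include Masp1 of the lectin pathway and the receptor gene C3ar1, 4 rose and 2 fell (median 0.08). C1s1, a protease that binds C1q, rose by 0.21 ± 0.04 (SE) and C4bp, an inhibitor, by 0.22 ± 0.03. C2, which the C1 complex cleaves, fell by 0.63 ± 0.05 (limma adjusted p = 9.33e-12), and Masp1 fell by 0.13 ± 0.03. C3ar1 rose by 0.31 ± 0.10 (limma adjusted p = 0.0259). Its r with the members within groups, 0.760, was the highest of this list.

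Genes of recruited and lipid-associated macrophages were split: of 12 tested, 3 rose and 4 fell (median 0.09). The list held 19 genes, and Ccr2, Ly6c2, Itgax, Gpnmb and Spp1 were among those not tested. Within groups 3 of the 12 had r above 0.5 with the members. Those 3 were Lyz2 (0.800), Lgals3 (0.674) and Lyz1 (0.668), and the list ran down to -0.398. F10 had 0.341, Fabp5 0.107 and Cd9 0.0724. Lgals3, galectin 3, rose by 0.24 ± 0.06 (SE), Mmp12 by 0.27 ± 0.06 and Cx3cr1 by 0.17 ± 0.05. Fabp5, a fatty acid binding protein, fell by 0.98 ± 0.16, Cd9, a tetraspanin, by 0.45 ± 0.06, Lpl by 0.34 ± 0.08 and F10, coagulation factor X, by 0.15 ± 0.03. F10 is made by hepatocytes.

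**Figure D4:**
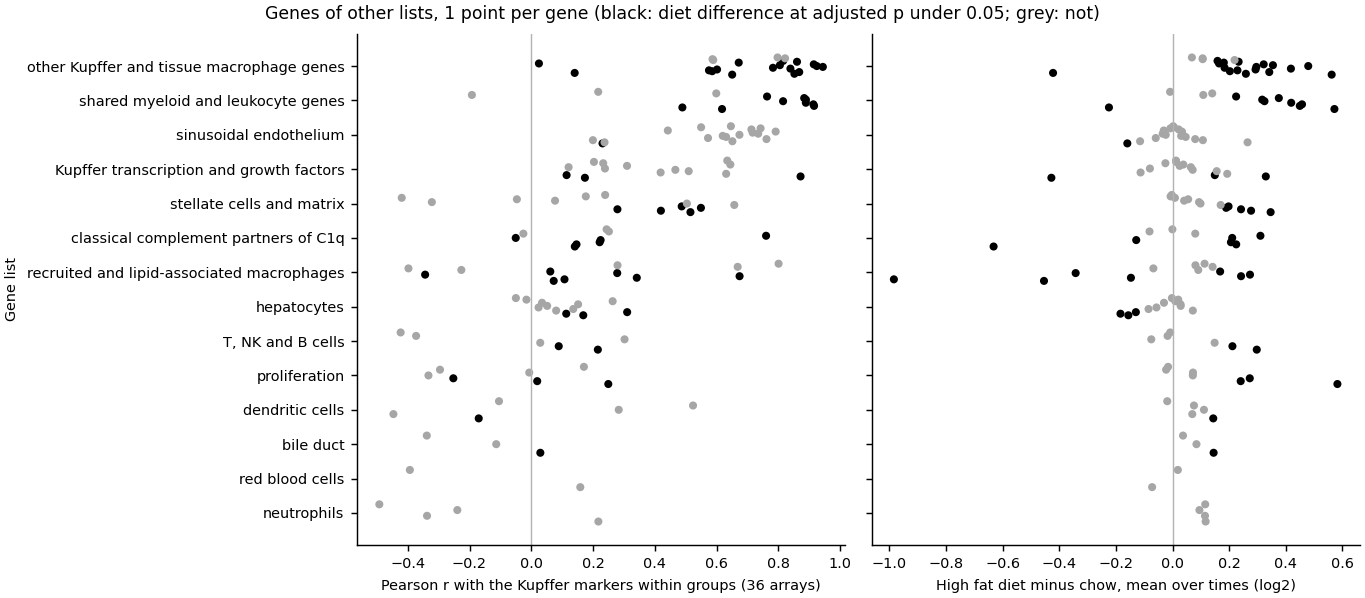
Genes of 14 lists (vertical axis), 1 point per gene, by Pearson r with the markers within groups over 36 arrays (left) and by the average log2 difference of high fat diet minus chow (right), in black where the limma adjusted p was under 0.05. Of the 17 endothelial genes 13 have r above 0.5 while 0 are called higher.

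Markers of the neighbouring sinusoidal endothelium varied with the members from array to array. Within groups 13 of 17 had r above 0.5 (median 0.646), and their mean level correlated with the members at r = 0.692 (rho = 0.687; 0.658 without the 2 arrays farthest from the median). Clec4g, a lectin of these cells, had the highest r, 0.791. With diet they did not move the same way. The list's mean level ran from 8.46 to 9.26 on chow and from 8.38 to 9.25 on high fat diet, 0 of 17 genes were called higher, and Tie1, a vascular receptor kinase, fell by 0.16. At ZT0 the list was 0.22 higher on high fat diet and at ZT8 0.34 lower, beside 0.71 and 0.16 for the members' medians.

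With each array's endothelial level as a covariate, an alternative chosen after the data were seen, the average differences of the members other than Marco were 0.22 to 0.55. Timd4 joined the 8 called members (limma adjusted p = 0.0245). At ZT0, Cd5l, C1qb, Adgre1 and Csf1r were called, with differences of 0.87, 0.87, 0.67 and 0.47. At ZT12, 6 members were called in this fit, and at ZT8 C1qa was called. The shares of all tested genes called in this fit were not computed, so these counts cannot be set beside them.

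Markers of other cells moved less with the members than the endothelial list did. Within groups, r of a list's mean level with the members ran from 0.410 (stellate list) down to -0.383 (neutrophil list). Of 12 hepatocyte genes, 0 had r above 0.5, and 3 fell: Tat by 0.18, Cps1 by 0.16 and Hnf4a by 0.13. Of 13 stellate genes 5 rose (median 0.10), Colec11 by 0.35 ± 0.07 (SE), and 4 had r above 0.5 (30.8%, beside 4.26% of all tested genes). Of 6 T, NK and B cell genes 2 rose, Cd4 by 0.30, a gene also seen on some macrophages, and Ccl5 by 0.21. The dendritic list had 1 of 5 higher, Cd209a at 0.14, the bile duct list 1 of 3, Pkhd1 at 0.14, and the neutrophil and red blood cell lists 0 of 4 and 0 of 2 (Csf3r 0.12, limma adjusted p = 0.0681; Alas2 -0.07, limma adjusted p = 0.302). Of 7 proliferation genes 3 rose, Rrm2 by 0.58, Ccna2 by 0.27 and Mcm4 by 0.24. The part of these cells in the members' differences was not tested.

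**Figure D5:**
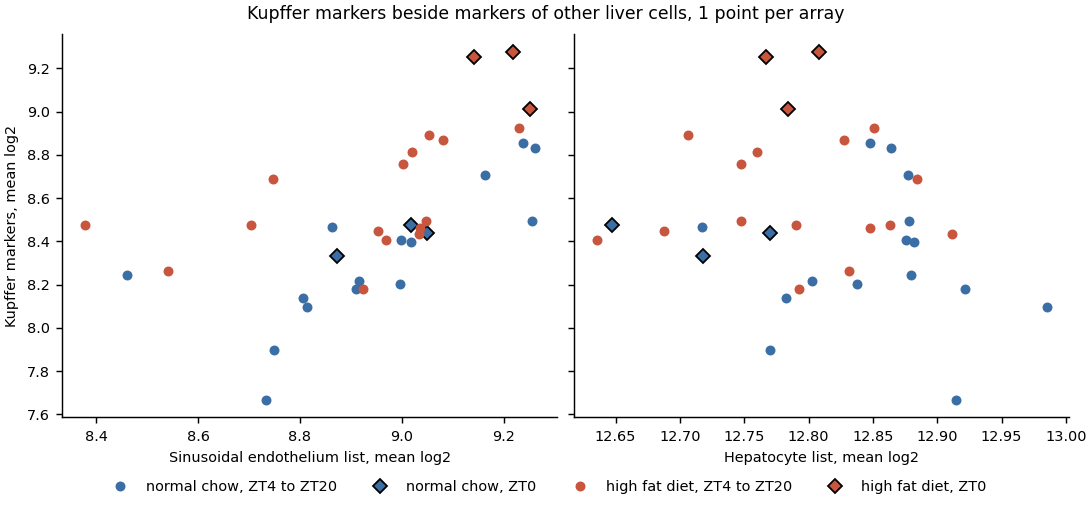
Mean log2 level of the 10 markers (vertical axis) against the mean of the endothelial list (left) and of the hepatocyte list (right), 1 point per array, with the ZT0 arrays as diamonds. The 3 high fat ZT0 arrays have the highest marker means, and the marker mean rises with the endothelial mean on the left.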

How the data were processed

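Liver RNA of 36 samples was measured on whole-transcript arrays, 1 per sample. The deposited values are linear intensities of 35556 probe sets, made with Affymetrix Expression Console 1.1.1 and PLIER 2.0, per the submitters' processing notes; how backgrounds were corrected or arrays normalized is not given in the sources used here, and neither are scan batches. Probe sets with 1 annotated gene were used, the brightest per gene. Values were taken as log2(intensity + 16) without further scaling, and genes above the 30th percentile of mean level (6.11) were tested.

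Diet effects came from limma 3.58.1 (R 4.3.3) with 1 mean per diet and time and 24 residual degrees of freedom, and rhythm from a second fit with a 24 h cosine and sine per diet. Pairs of members were compared by 100000 permutations. The number of arrays limits the precision.

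The members and lists were chosen with earlier results of these data known. The text names all members and, from each list, up to 4 called genes with the smallest p (or the 1 smallest where none was called). It also names the 8 genes most like the members on each measure. Clec4g, C3ar1 and, from the recruited macrophage list, Mmp12, Cx3cr1, Lpl, Lyz1 and Lyz2 were named after their values were seen. Some untested genes of that list are named too. Alternatives covered scaling, filter, offset, threshold, array weights, variance trend, the replicate number as a block and each array left out.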

Additional observations from a re-analysis of the deposited data

How the results depend on the processing

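Clec4f and Cd5l kept their call and direction for the average diet difference in all 55 alternatives, and the other members except Marco kept their direction. The number of members called was 5 at an adjusted p under 0.01, 2 without ZT0 and 4 without ZT12, and 8 to 9 with single arrays left out. Median centring left 7 (Csf1r was lost) and leaving out the 4 arrays of weight under 0.5 left 6. With the replicate number as a block, 9 were called (Timd4 at a limma adjusted p of 0.0435). Over all tested genes, 5 of 18 pairs of same-numbered samples had deviations that correlated above 0.1 (median 0.02), so the numbers were not taken to pair samples; in the members' mean, the same number was highest on both diets at 4 of 6 times and lowest on both at 3. Of the 6 calls at single times, 1 remained at an adjusted p under 0.01; the number was 1 to 10 with single arrays left out, 10 without the first chow array of ZT8 or of ZT12, and 11 with the endothelial covariate. Replacing the wave on high fat diet by any difference between times gave 2 called members in place of 0. Marco, not called in any, reversed to -0.026 with quantile normalization, -0.030 with median centring, -0.010 without the 4 low-weight arrays, -0.0093 without ZT0, -0.0059 without ZT4, -0.025 without ZT8 and -0.0028 without ZT12, and ran from -0.023 to 0.038 with single arrays left out. Beyond fewer samples or times, the cause was not tested. The dim level of Marco and 3 arrays per group limit what could be seen at single times.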
